A study of Mus musculus with 10 samples.

Results

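The genes described are 9 of the 29268 genes measured in the mouse uterus, chosen by name for their place in retinoid metabolism and signalling. They are the retinaldehyde dehydrogenases *Aldh1a1*, *Aldh1a2* and *Aldh1a3*, the retinol carrier *Rbp4* and its cell-surface receptor *Stra6*, the intracellular binding protein *Crabp2*, and the retinoic acid receptors *Rara*, *Rarb* and *Rarg*. All 9 were found in the table, and 8 passed the filter on low counts. *Rarb* did not.

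RNA sequencing was carried out on the uteri of 5 HSD17B1TG and 5 WT females aged 4 months, with 1 library per mouse (TG1 to TG5 and WT1 to WT5). HSD17B1TG mice are on the FVB/N background and carry human *HSD17B1*, the enzyme that turns estrone into the more active estradiol. The transgene is driven in all tissues by a chicken beta actin promoter with a CMV enhancer, so it is not limited to the uterus, and the line is kept heterozygous. According to the study, the transgenic females do not have estrous cycles, while WT uteri for histology were taken at random phases. The cycle phase of the sequenced WT mice is not in the labels, so genotype and cycling cannot be told apart. The comparison asks how uterine RNA differs between the genotypes.

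Vitamin A circulates as retinol bound to *Rbp4* and enters cells through *Stra6*. Inside the cell retinol is oxidised to retinaldehyde, and the *Aldh1a* enzymes oxidise retinaldehyde irreversibly to retinoic acid. *Crabp2* carries retinoic acid to the nucleus, where the receptors *Rara*, *Rarb* and *Rarg* bind DNA as heterodimers with the RXR receptors, and enzymes of the *Cyp26* family break retinoic acid down. In the uterus retinoic acid is known for its part in epithelial and stromal differentiation around implantation, and several genes of the pathway respond to ovarian steroids.

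The receptor heterodimer is known to bind direct repeats in the promoters of *Rarb* and *Cyp26a1*, both of which are textbook genes induced by retinoic acid. The windows of these genes are shown because they were the only windows among the 9 genes and the further retinoid genes that held such a repeat. A window runs from 250 bases before a RefSeq transcript start to 50 bases after it (build GRCm38.p6). RefSeq windows were held for 7 of the 9 genes (16 windows) and for 36 of the further retinoid genes (50 windows), and not for *Aldh1a3* and *Crabp2*. The repeat was searched as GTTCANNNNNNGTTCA on both strands, and 25 of 32851 windows (0.0761%) held it. The *Rarb* window lies at chr14:16575427-16575726 on the minus strand, inside the gene as the table places it. The *Cyp26a1* window lies at chr19:37697558-37697857 on the plus strand. Both are written 5′ to 3′ along the gene's strand with the match in capitals. In *Rarb* it reads along the gene, 52 to 37 bases before the start, and in *Cyp26a1* it lies on the opposite strand, 32 to 17 bases before the start.
Rarb: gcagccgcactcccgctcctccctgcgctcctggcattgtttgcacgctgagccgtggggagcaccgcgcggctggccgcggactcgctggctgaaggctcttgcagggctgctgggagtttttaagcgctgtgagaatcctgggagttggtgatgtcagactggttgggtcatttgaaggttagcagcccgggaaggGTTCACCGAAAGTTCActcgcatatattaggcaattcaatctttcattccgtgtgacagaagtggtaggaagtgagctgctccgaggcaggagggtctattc
Cyp26a1: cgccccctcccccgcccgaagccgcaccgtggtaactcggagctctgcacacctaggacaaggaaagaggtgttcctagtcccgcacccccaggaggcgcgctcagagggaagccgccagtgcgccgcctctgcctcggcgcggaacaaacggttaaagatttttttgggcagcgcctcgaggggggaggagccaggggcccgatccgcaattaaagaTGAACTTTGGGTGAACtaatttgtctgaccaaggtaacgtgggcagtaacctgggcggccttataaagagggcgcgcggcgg
The palindrome GGTCANNNTGACC, the form bound by estrogen receptors, was held by 23 windows (0.0700%), none of them of these 9 or of the further retinoid genes. The single receptor half-site AGGTCA was held by 5340 windows (16.3%), and it can overlap the palindrome. Among them were 1 window each of *Rara* and *Rarg* and 11 of the further retinoid genes. A match in these letters is a description of the sequence and is no evidence of binding.

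Total counts on genes were 14817228 to 23271988 per mouse. In whole uterus, fewer cells of a type and less RNA per cell cannot be told apart, so the levels of cell type markers were set beside the results. FPKM + 0.1 were also divided by the epithelial or the stromal marker sum of each mouse. The division gives every gene the same shift of its log2 difference, -1.13 per epithelial and 0.96 per stromal sum. The shift applies to the difference of mean log2(FPKM + 0.1), not to the fitted log2 fold change. Under the exact permutation test (unadjusted p under 0.05), 1.77% of all genes were then higher and 34.7% lower in HSD17B1TG per epithelial sum, and 55.4% were higher and 0.606% lower per stromal sum. Such values are therefore given as descriptions, with a p only where the shift runs against the difference. All 8 epithelial markers were higher in HSD17B1TG without passing the test (median log2 fold change 1.24), and their summed FPKM was 665 to 3082 in HSD17B1TG and 483 to 1582 in WT. Of 8 stromal markers 5 fell and 7 were lower (median -1.73), with sums of 492 to 1883 and 1676 to 2020. All 7 smooth muscle markers were higher without passing the test (median 0.60), and their sum was 845 to 7235 and 404 to 5712, with the highest values in TG1 (7235) and WT4 (5712). The sum of 4 gland markers was 0.838 to 5.94 in HSD17B1TG, and 5.33, 22.7, 44.5, 1.94 and 42.7 in WT1 to WT5, and the 2 of them that were tested were lower without passing (median -3.09). Of 7 tested squamous markers 2 rose (median 1.62, sums of 6.93 to 46.2 and 6.39 to 10.8), and of 5 tested leucocyte markers 2 rose (median -0.01). All 6 endothelial markers were lower (median -0.94) and 5 of 6 mesothelial markers higher (median 1.404) without passing the test, nor did any of 3 oviduct markers. WT4 also had the highest epithelial sum of the WT mice (1582) and the lowest gland sum among them. TG1 had a stromal sum of 1883, within the WT range. Adipocyte markers summed to 103.5 in TG4, 20.1 in WT2, 15.7 in TG2, 3.50 in WT4 and at most 0.488 in the other 6 mice. Of the 3 liver markers, *Alb* and *Apoa1* had at most 3 counts in every mouse, whereas *Serpina1a*, which has near-identical copies, was at 6.24 to 27.8 FPKM in HSD17B1TG and 0.0287 to 3.75 in WT, without overlap and without passing the adjusted test (log2 fold change 3.82).

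None of the 8 tested genes passed the thresholds of edgeR adjusted p under 0.05, more than 2-fold difference and mean level above 1 FPKM in a genotype, which 4.24% of the 16993 genes tested passed. The adjusted p alone was under 0.05 for none of the 8 and for 6.16% of all genes. At an unadjusted p under 0.05, 2 of the 8 remained, *Crabp2* with a higher and *Stra6* with a lower level in HSD17B1TG, against 26.1% of all genes. DESeq2 called both of them (5.49% of 29089 genes, a wider base without the filter on low counts). Both limma on voom weights (10.3% of 16993 genes) and limma on log2(FPKM + 1) (3.79%) called *Crabp2* alone. Among the 8 genes the largest fitted differences were those of *Stra6* and *Crabp2*, and both rested on groups with wide spreads. The 2 of 8 genes under an unadjusted p of 0.05 were near the share of all genes (26.1%). The median log2 fold change of the 8 genes was -0.77, with 3 of them positive, while over all genes it was 0.00 with 50.2% positive. The exact permutation test gave an unadjusted p under 0.05 for the same 2 of the 9 genes, against 24.1% of all genes. In none of the 9 genes were the FPKM of the 2 genotypes free of overlap, while 6.69% of all genes tested had groups that did not overlap (4.04% higher and 2.65% lower in HSD17B1TG).

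**Figure D1:**
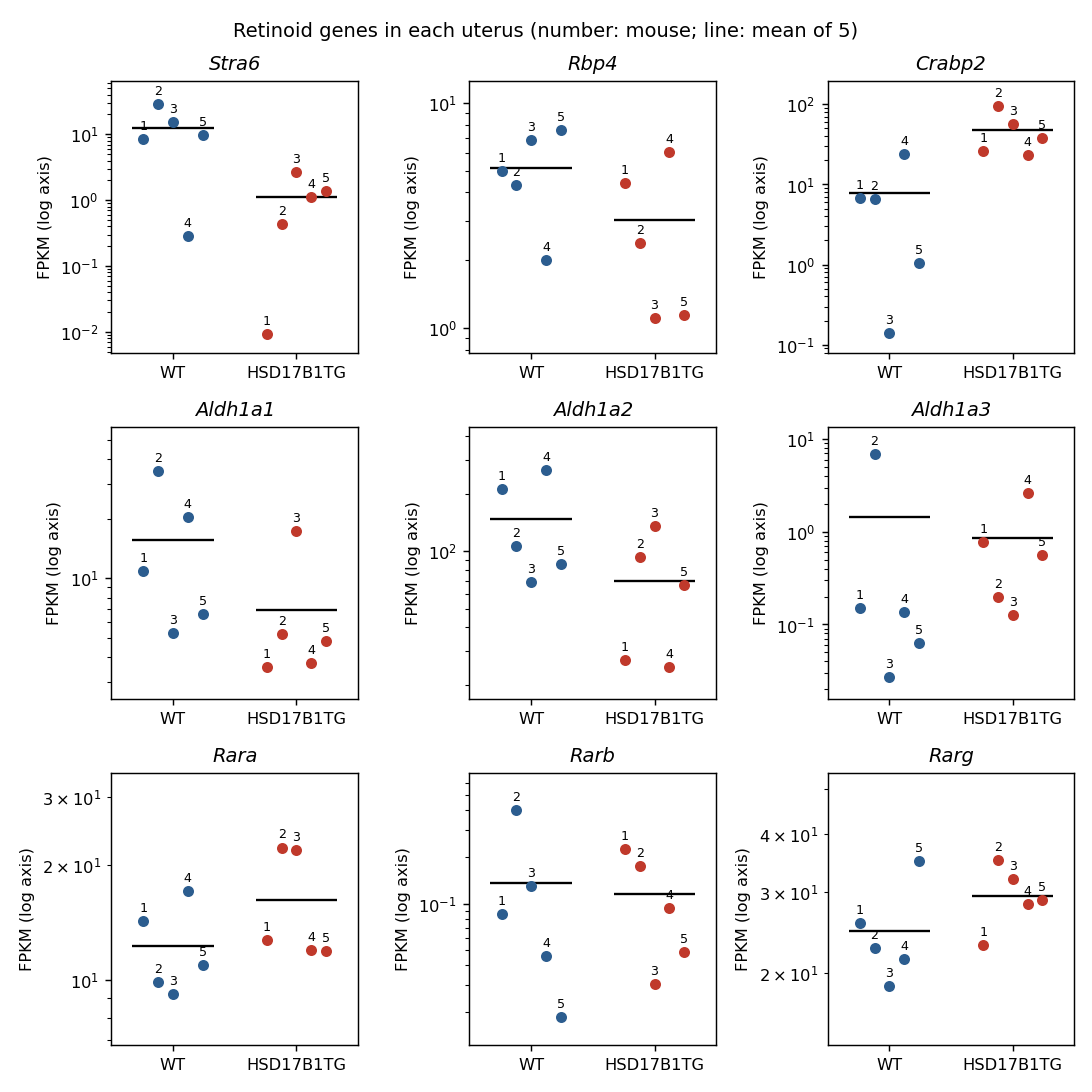
FPKM (log axis) of the 9 genes in each uterus, with WT in blue and HSD17B1TG in red. A point is 1 mouse with its number and the line is the mean of 5. *Crabp2* in 4 of 5 HSD17B1TG mice was above every WT mouse, *Stra6* was low in HSD17B1TG and in WT4, and *Rara* and *Rarg* varied little.

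*Rbp4* (ENSMUSG00000024990, chr19:38116620-38125321, minus strand) encodes the plasma carrier of retinol, which the liver is known to make in quantity. Its FPKM was 4.43, 2.39, 1.11, 6.02 and 1.14 in TG1 to TG5, and 4.99, 4.30, 6.84, 2.02 and 7.57 in WT1 to WT5. TG3 and TG5 were below every WT mouse, and the other values were interspersed. The HSD17B1TG mean was 3.02 ± 2.16 and the WT mean 5.14 ± 2.19 (SD, n = 5 each). The log2 fold change was -0.77 (SE 0.53, 95% interval -1.94 to 0.39, edgeR adjusted p = 0.386), and an exact two-sided permutation test of log2(FPKM + 1) gave p = 0.151. Per summed FPKM of the stromal markers, the mean log2 difference was 0.04 (exact permutation p = 0.952), and per that of the epithelial markers -2.05.

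*Stra6* (ENSMUSG00000032327, chr9:58063788-58153996, plus strand) encodes the membrane receptor that takes retinol from the carrier into the cell. Its FPKM was 0.0092, 0.434, 2.69, 1.12 and 1.39 in TG1 to TG5, and 8.39, 28.7, 15.3, 0.282 and 9.71 in WT1 to WT5. Of the WT mice 4 lay above every HSD17B1TG mouse, whereas WT4 lay below all of them but TG1. The counts behind the lowest values were 1 in TG1 and 34 in WT4. The mean was 1.13 ± 1.03 in HSD17B1TG and 12.5 ± 10.5 in WT (SD, n = 5 each), an 11.2-fold lower level in the fit. The log2 fold change was -3.48 (SE 1.11, 95% interval -5.94 to -1.03), with an unadjusted p of 0.00976 and an adjusted p of 0.0801 by edgeR. Without WT4 it was -3.79 with an adjusted p of 0.0236 by edgeR, a fit in which 8.96% of 17344 genes were called. The two-sided exact permutation test gave p = 0.0397, and 0.0635 and 0.0714 on the alternative scales log2(FPKM + 0.1) and log2 CPM. Per stromal marker sum the log2 difference of *Stra6* was -2.15 (exact permutation p = 0.214) and per epithelial marker sum -4.24. The gland marker sum was 0.838 to 5.94 FPKM in HSD17B1TG and 1.94 in WT4, against 5.33 to 44.5 in the other WT mice. WT1, at 5.33, was below TG5 in gland markers but far above it in *Stra6*, and the part of the gland markers in the *Stra6* level was not tested. *Stra6* overlaps *Ccdc33* on the opposite strand and *Gm16131* on its own strand. The strand setting of the counting is not given in the sources used here, so reads of *Stra6* and *Ccdc33* cannot be told apart where they overlap, and strand does not separate those of *Gm16131*.

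*Crabp2* (ENSMUSG00000004885, chr3:87948666-87953376, plus strand) encodes the protein that delivers retinoic acid to its nuclear receptors. Its FPKM was 26.4, 94.01, 57.2, 23.2 and 38.0 in TG1 to TG5, and 6.83, 6.57, 0.141, 24.1 and 1.03 in WT1 to WT5. All HSD17B1TG mice were above 4 of the WT mice, and only WT4 overlapped, lying just above TG4. The mean was 47.8 ± 29.1 in HSD17B1TG and 7.74 ± 9.67 in WT (SD, n = 5 each). The spread was uneven, as the highest value was 4.05 times the lowest in HSD17B1TG and 172 times the lowest in WT, where WT3 had 3 counts. The fitted level was 6.17-fold higher in HSD17B1TG, with a log2 fold change of 2.63 (SE 0.94, 95% interval 0.56 to 4.69), an unadjusted p of 0.0173 and an adjusted p of 0.108 by edgeR. Without WT4 the log2 fold change was 3.70 with an edgeR adjusted p of 0.0264. The two-sided exact permutation test gave p = 0.0159, where 0.00794 is the smallest value the 252 assignments of the mice allow. On log2(FPKM + 0.1), the scale of the marker divisions, the undivided log2 difference was 3.73. Per epithelial marker sum *Crabp2* was also higher, with a smaller log2 difference of 2.60 (exact permutation p = 0.0238). A share of 1.77% of all genes was higher in this way. Per stromal marker sum the difference was 4.69. No annotated gene overlaps *Crabp2*.

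**Figure D2:**
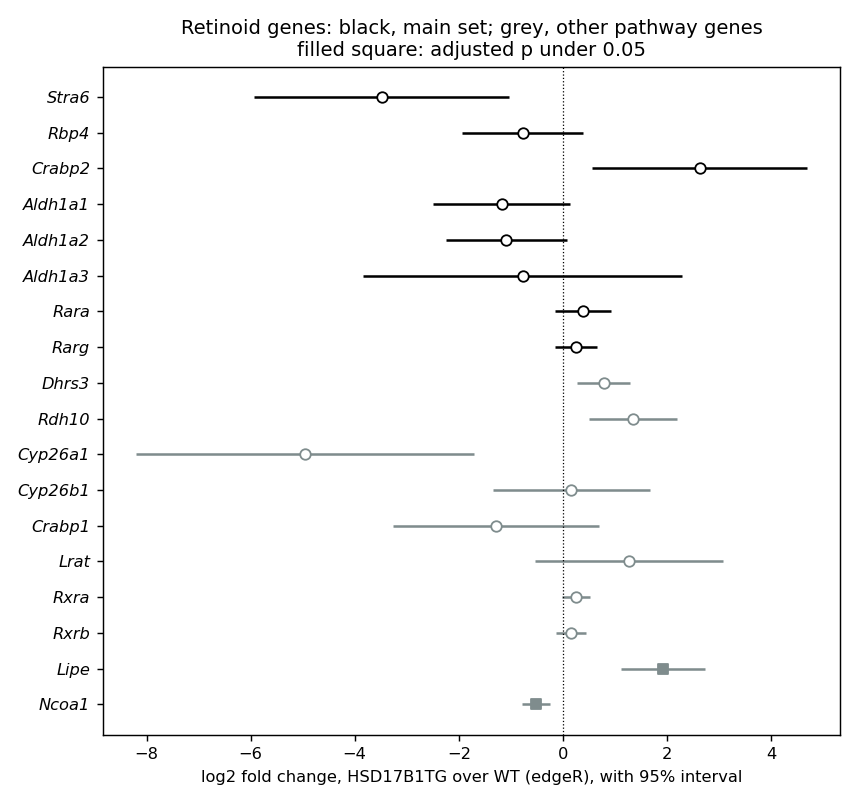
Log2 fold change of HSD17B1TG over WT in the edgeR fit (horizontal axis) with its 95% interval for the 8 tested genes (black) and the further named retinoid genes (grey). Filled squares mark an adjusted p under 0.05, reached by *Lipe* and *Ncoa1* and by none of the black genes. The intervals of *Stra6* and *Crabp2* lie on opposite sides of 0.

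*Aldh1a2* (ENSMUSG00000013584, chr9:71215789-71296243, plus strand), the main retinoic acid producing enzyme of embryonic mesenchyme, had the highest level of the 9 genes in both genotypes. Its FPKM was 27.1, 93.9, 136, 24.7 and 66.8 in TG1 to TG5, and 213, 107, 69.1, 265 and 86.2 in WT1 to WT5. TG1, TG4 and TG5 were below every WT mouse, TG2 and TG3 were among the WT values, and WT1 and WT4 were above all HSD17B1TG mice. The mean was 69.6 ± 46.8 against 148 ± 86.2 (SD, n = 5 each). The log2 fold change was -1.09 (SE 0.53, 95% interval -2.25 to 0.07, edgeR adjusted p = 0.218), and the exact permutation test gave p = 0.103. Divided by the stromal marker sum, the log2 difference was -0.23 (exact permutation p = 0.770), whereas divided by the epithelial marker sum it was -2.33. Stromal markers and *Aldh1a2* were both lower in HSD17B1TG, but within that genotype the mouse with the highest stromal sum, TG1, was among the lowest in *Aldh1a2*, and the part of the stroma was not tested.

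*Aldh1a1* (ENSMUSG00000053279, chr19:20492715-20643462, plus strand), a retinaldehyde dehydrogenase of many adult epithelia, showed a like pattern at a lower level. Its FPKM was 3.57, 5.24, 17.4, 3.73 and 4.79 in TG1 to TG5, and 10.8, 34.8, 5.30, 20.5 and 6.57 in WT1 to WT5. All HSD17B1TG mice but TG3 were below every WT mouse, TG2 by a small margin under WT3. The mean was 6.94 ± 5.87 against 15.6 ± 12.3 (SD, n = 5 each), and the log2 fold change was -1.18 (SE 0.60, 95% interval -2.50 to 0.14, edgeR adjusted p = 0.240). The exact permutation test gave p = 0.119 with all mice and 0.0397 to 0.262 with a mouse left out. In the fit the log2 difference was -1.87 without TG3 and -0.66 without WT2, neither with an edgeR adjusted p under 0.05 (0.0593 and 0.537). Per stromal marker sum the log2 difference was -0.13 (exact permutation p = 0.881) and per epithelial marker sum -2.22.

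*Aldh1a3* (ENSMUSG00000015134, chr7:66390890-66427517, minus strand), the third enzyme of the family, was at a low level in most mice. Its FPKM was 0.767, 0.199, 0.127, 2.61 and 0.557 in TG1 to TG5, and 0.150, 6.84, 0.0269, 0.136 and 0.0635 in WT1 to WT5. WT2 was far above the other mice, and without it the remaining WT values were near or below the lowest HSD17B1TG values. The mean was 0.851 ± 1.02 against 1.44 ± 3.02 (SD, n = 5 each). The log2 fold change was -0.77 (SE 1.39, 95% interval -3.84 to 2.30, edgeR adjusted p = 0.769), and the exact permutation test gave p = 0.913. The direction was that of WT2, since without this mouse the log2 fold change was 3.11 with an edgeR adjusted p of 0.114. The mouse with the highest *Aldh1a3* of each genotype, TG4 and WT2, was also the one with the highest adipocyte marker sum of its genotype, and the part of this in the result was not tested. On log2(FPKM + 0.1) the undivided log2 difference was 0.72, against 1.68 per stromal marker sum and -0.41 per epithelial marker sum.

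The 3 enzymes together summed to 77.4 ± 51.2 FPKM in HSD17B1TG (31.0 to 153) and 165 ± 89.1 in WT (74.4 to 286). *Aldh1a2* made up 88.3% ± 5.86 of this sum in HSD17B1TG and 89.1% ± 9.64 in WT (SD, n = 5 each). The share of *Aldh1a1* was 9.33% ± 3.13 and 9.93% ± 7.62, and that of *Aldh1a3* 2.38% ± 3.49 and 0.966% ± 2.04. The balance between the enzymes was compared directly by the log2 ratio of each pair per mouse. The difference between genotypes was 0.10 for *Aldh1a1* over *Aldh1a2* (exact permutation p = 0.889), -1.82 for *Aldh1a1* over *Aldh1a3* (p = 0.167) and -1.92 for *Aldh1a2* over *Aldh1a3* (p = 0.254). With adjustment over 6 pairs, none of these or of the receptor pairs passed the threshold.

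**Figure D3:**
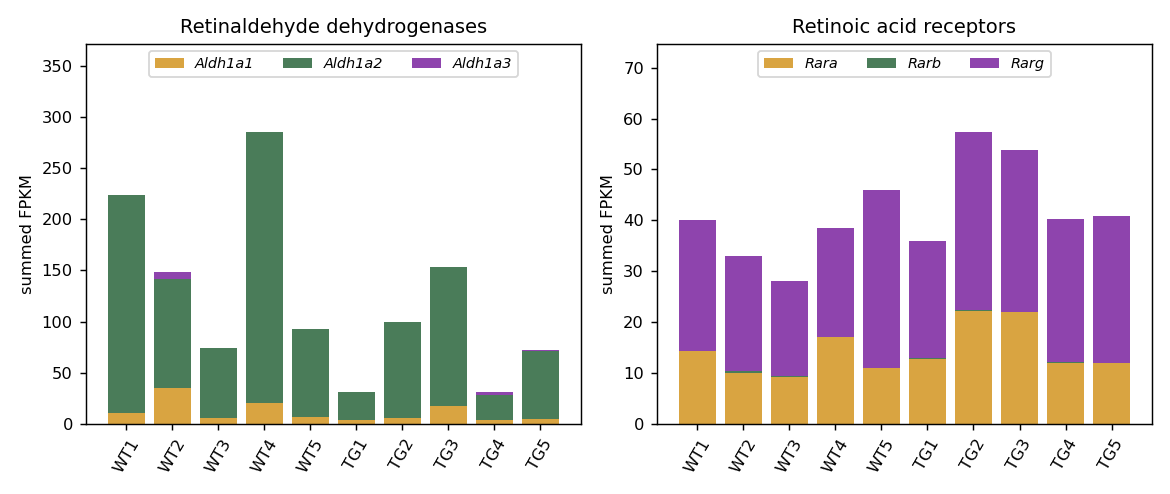
Summed FPKM of the 3 retinaldehyde dehydrogenases (left) and of the 3 retinoic acid receptors (right) in each mouse, with the parts of the bars giving each gene. *Aldh1a2* makes up most of the left bars, whose height ranges from 31.0 in TG4 to 286 in WT4, and *Rarg* and *Rara* make up nearly all of the right bars.

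*Rarg* (ENSMUSG00000001288, chr15:102234938-102257517, minus strand), a retinoic acid receptor best known from skin and cartilage, was the most abundant of the receptors. Its FPKM was 23.0, 35.1, 31.9, 28.2 and 28.8 in TG1 to TG5, and 25.6, 22.6, 18.7, 21.4 and 35.0 in WT1 to WT5. WT5 was almost as high as TG2, the highest mouse, while the other 4 WT mice were below all HSD17B1TG mice except TG1. The mean was 29.4 ± 4.51 against 24.7 ± 6.27 (SD, n = 5 each). The log2 fold change was 0.25 (SE 0.18, 95% interval -0.16 to 0.65, edgeR adjusted p = 0.426), with an exact permutation p = 0.159 that was 0.0317 without WT5.

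*Rara* (ENSMUSG00000037992, chr11:98927818-98974942, plus strand) is the most broadly expressed receptor of the family. Its FPKM was 12.7, 22.2, 21.9, 11.99 and 11.9 in TG1 to TG5, and 14.2, 9.92, 9.22, 17.1 and 10.9 in WT1 to WT5. TG2 and TG3 were above every other mouse, and the remaining HSD17B1TG mice lay among the WT values. The mean was 16.1 ± 5.39 against 12.3 ± 3.30 (SD, n = 5 each), with a log2 fold change of 0.39 (SE 0.24, 95% interval -0.15 to 0.93, edgeR adjusted p = 0.339) and an exact permutation p = 0.206. Per stromal marker sum the log2 difference was 1.33 for *Rara* and 1.23 for *Rarg*, and per epithelial marker sum -0.76 and -0.86, so the direction followed the shift of the division.

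*Rarb* (ENSMUSG00000017491, chr14:16430839-16819156, minus strand), the receptor whose window with the direct repeat is shown above, was barely detected. Its FPKM was 0.224, 0.175, 0.0303, 0.0942 and 0.0488 in TG1 to TG5, and 0.0850, 0.400, 0.130, 0.0460 and 0.0185 in WT1 to WT5. The values of the genotypes were interspersed, with WT2 highest and WT5 lowest, and they rested on 2 to 40 counts per mouse. The mean was 0.114 ± 0.0829 against 0.136 ± 0.153 (SD, n = 5 each), and the exact permutation test gave p = 0.865. Fitted without the filter, the log2 fold change was -0.29 (SE 0.79, edgeR adjusted p = 0.871). A difference between genotypes was not detectable at this depth. *Rarb* overlaps *Top2b* and the antisense gene *Gm48162* on the opposite strand, and reads of overlapping genes could not be told apart here.

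The summed FPKM of the 3 receptors was 45.6 ± 9.40 in HSD17B1TG and 37.1 ± 6.83 in WT (SD, n = 5 each). *Rarg* made up 65.0% ± 5.14 and 66.2% ± 7.46 of the sum, *Rara* 34.8% ± 5.13 and 33.3% ± 7.53, and *Rarb* 0.268% ± 0.221 and 0.409% ± 0.477. The log2 ratio of *Rara* to *Rarg* differed by 0.10 between genotypes (exact permutation p = 0.714), that of *Rara* to *Rarb* by 0.40 (p = 0.516) and that of *Rarb* to *Rarg* by -0.30 (p = 0.595).

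In order of mean FPKM, the WT uterus held *Aldh1a2*, *Rarg*, *Aldh1a1*, *Stra6*, *Rara*, *Crabp2*, *Rbp4*, *Aldh1a3* and *Rarb*. The values of *Aldh1a2* did not overlap those of *Rarg* in WT, whereas every other pair of neighbours in this order overlapped. The HSD17B1TG uterus held *Aldh1a2*, *Crabp2*, *Rarg*, *Rara*, *Aldh1a1*, *Rbp4*, *Stra6*, *Aldh1a3* and *Rarb*. There only *Rarg* and *Rara* were neighbours whose values did not overlap. *Crabp2* thus stood next to *Aldh1a2* in HSD17B1TG and after *Rara* in WT, and *Stra6* moved the other way.

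Further genes of the pathway were read from a list of 49, of which 46 were in the table and 38 were tested. *Lipe* was called higher in HSD17B1TG (1 of 38, against 2.16% of all genes called higher) and none was called lower (2.08% of all genes). *Ncoa1* fell with an adjusted p under the threshold but by less than 2-fold. At an unadjusted p under 0.05, 8 were higher and 6 lower, against 26.1% of all genes in either direction. The median log2 fold change of the 38 genes was 0.06, with 21 positive.

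Of the further carriers, uptake and storage genes, 1 of 9 tested was called, where 4.24% of all genes were. *Lipe*, hormone-sensitive lipase, which frees retinol from its esters, had an FPKM of 10.8, 18.8, 7.33, 12.2 and 31.4 in TG1 to TG5 and 4.73, 2.69, 4.00, 4.51 and 5.26 in WT1 to WT5. It rose with no overlap (log2 fold change 1.92, SE 0.37, edgeR adjusted p = 0.0234), and passed the threshold in 4 of the 10 fits with a mouse left out. Without both TG4 and WT2, the mice with the highest adipocyte markers, its log2 fold change was 1.85 and the edgeR adjusted p 0.118. *Lrat*, which esterifies retinol for storage, had a mean of 2.12 ± 1.79 against 0.873 ± 1.01 (log2 fold change 1.28, edgeR adjusted p = 0.355). *Crabp1*, the second retinoic acid binding protein, had 4.43 ± 4.97 against 10.7 ± 9.73 (-1.28, adjusted p = 0.397 by edgeR). With a mouse left out these values ran from 0.67 without TG2 to 2.21 without WT5 for *Lrat*, and from -2.26 without TG3 to -0.64 without WT1 for *Crabp1*.

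A pair of carriers that missed the filter were named after their values were seen. *Rbp2*, a cellular retinol-binding protein known from the intestine, had an FPKM of 0.836, 4.12, 0.718, 0.451 and 1.67 in TG1 to TG5, and was at 0 counts in 3 WT mice and at 0.0846 and 0.0503 in WT1 and WT4. The counts were 15, 69, 13, 7 and 25 in TG1 to TG5 against 3 in all WT mice together, and every HSD17B1TG mouse was above every WT mouse. *Rbp2* was called by DESeq2 and by edgeR without the filter. *Ttr*, which holds *Rbp4* in the circulation, had no count in any HSD17B1TG mouse and an FPKM of 0.400, 0.777, 15.4, 0.0794 and 1.202 in WT1 to WT5. The counts in WT1 to WT5 were 12, 18, 302, 2 and 30, so that WT3 stood far above the others and WT4 was below the floor of 3 counts.

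The genes that interconvert retinol and retinaldehyde gave 0 calls by edgeR among 14 tested, with 3 higher and 2 lower at an unadjusted p under 0.05 (5 of 14, against 26.1% of all genes). The lower ones, named after their values were seen, were *Adh5* (11.2 ± 1.57 against 19.1 ± 7.59 FPKM, log2 fold change -0.78, edgeR adjusted p = 0.0724) and *Rdh16* (0.0326 ± 0.0502 against 0.325 ± 0.351, -3.26, edgeR adjusted p = 0.111). *Rdh10*, which oxidises retinol to retinaldehyde, had an FPKM of 33.5, 70.1, 67.5, 85.2 and 128 in TG1 to TG5, and 49.95, 22.6, 39.3, 23.7 and 15.8 in WT1 to WT5. All HSD17B1TG mice but TG1 were above every WT mouse, and the log2 fold change was 1.34 (SE 0.38, edgeR adjusted p = 0.0600). *Dhrs3*, which returns retinaldehyde to retinol, had an FPKM of 37.3, 30.4, 18.0, 37.4 and 36.4 in TG1 to TG5, and 13.4, 24.9, 20.1, 17.4 and 16.6 in WT1 to WT5. All but TG3 were above every WT mouse, and the log2 fold change was 0.78 (SE 0.23, edgeR adjusted p = 0.0642). Each gave p = 0.0238 in the exact permutation test. DESeq2 put both under its threshold, with adjusted p = 0.0102 for *Rdh10* and 0.0231 for *Dhrs3*, whose fold change was under 2.

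*Cyp26a1*, the inducible enzyme of retinoic acid breakdown, whose window holds the repeat shown above, had an FPKM of 0.151, 0.195, 0.330, 0.0700 and 0 in TG1 to TG5, and 0.321, 2.14, 1.22, 0.0273 and 20.1 in WT1 to WT5. WT2, WT3 and WT5 were above every HSD17B1TG mouse, and WT1 and WT4 were not. The log2 fold change was -4.95 (SE 1.47, edgeR adjusted p = 0.0661) and the exact permutation test gave p = 0.0794. WT5 held 731 of the WT counts, where the other WT mice had 1 to 72 and the HSD17B1TG mice 0 to 11. Without WT5 the log2 fold change was -2.60 (edgeR adjusted p = 0.185) and without WT4 it was -5.27 (edgeR adjusted p = 0.0235), and DESeq2 called *Cyp26a1* with all mice (adjusted p = 0.00637). *Cyp26b1* had a mean of 1.47 ± 1.78 against 1.31 ± 0.633 (log2 fold change 0.16, edgeR adjusted p = 0.907), and *Cyp26c1*, which missed the filter, 0.0213 ± 0.0325 against 0.233 ± 0.273.

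Of the RXR partner receptors, *Rxra* had 18.2 ± 2.54 FPKM in HSD17B1TG and 15.3 ± 1.11 in WT (SD, n = 5 each; log2 fold change 0.25, edgeR adjusted p = 0.225, exact permutation p = 0.0397). *Rxrb* had 19.7 ± 2.33 and 17.7 ± 2.10 (0.15, edgeR adjusted p = 0.496). *Rxrg* missed the filter, with 0.348 ± 0.403 and 0.0755 ± 0.0515. The mean FPKM of *Rxra* and *Rxrb* thus lay between those of *Rara* and *Rarg* in both genotypes. Of 6 coregulators, *Ncoa1*, a coactivator of nuclear receptors, fell from 5.39 ± 0.741 to 3.77 ± 0.115 FPKM with no overlap (log2 fold change -0.52, SE 0.12, edgeR adjusted p = 0.0368), and passed in 3 of the 10 fits with a mouse left out.

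**Figure D4:**
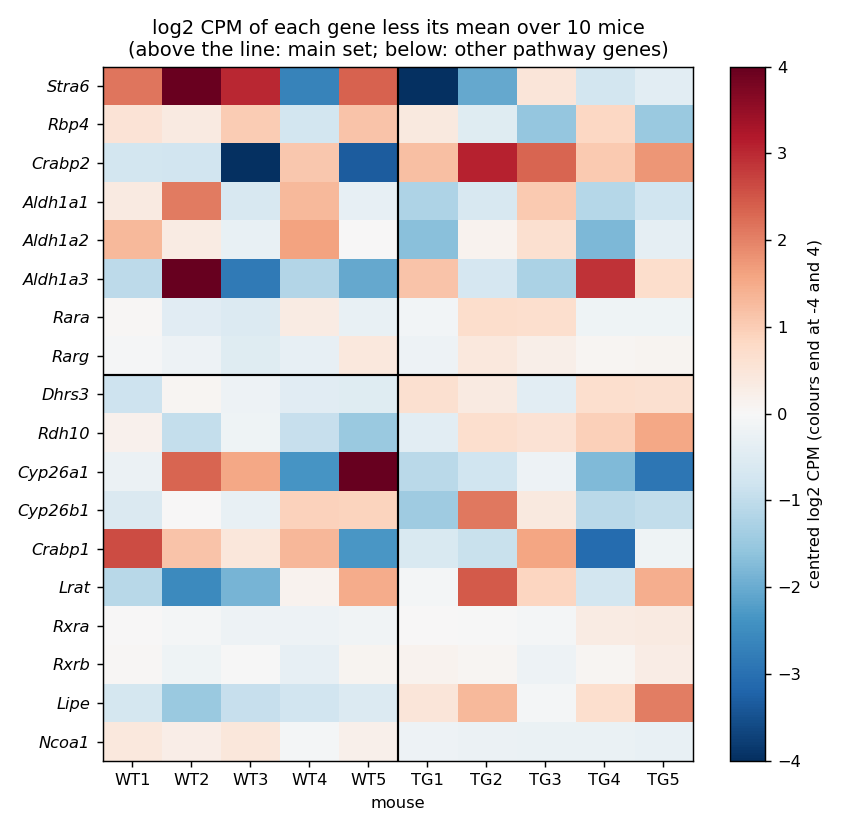
Log2 CPM of each gene less its mean over the 10 mice, with mice in columns and genes in rows (red above, blue below the mean, colours ending at -4 and 4). WT4 has low *Stra6* and high *Crabp2* among the WT mice, as in the values given for each mouse.

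The level of *Crabp2* was also set beside that of the epithelial markers in each mouse. The epithelial sum was 2180, 2391, 1863 and 3082 in TG2 to TG5, where *Crabp2* was 23.2 to 94.01 FPKM. WT4, the WT mouse with the highest epithelial sum (1582), had the highest WT level of *Crabp2* (24.1). TG1 had an epithelial sum of 665, between WT3 (637) and WT2 (792), with *Crabp2* at 26.4 against 0.141 in WT3 and 6.57 in WT2. The part of the epithelium in the *Crabp2* level was not tested. *Aldh1a2* was set beside the stromal sum in the same way. The stromal sum was 923, 797, 1078 and 492 in TG2 to TG5, with *Aldh1a2* at 93.9, 136, 24.7 and 66.8. The 5 WT mice had stromal sums of 1676 to 2020 and an *Aldh1a2* of 69.1 to 265, and TG1, with a sum of 1883, had an *Aldh1a2* of 27.1.

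**Figure D5:**
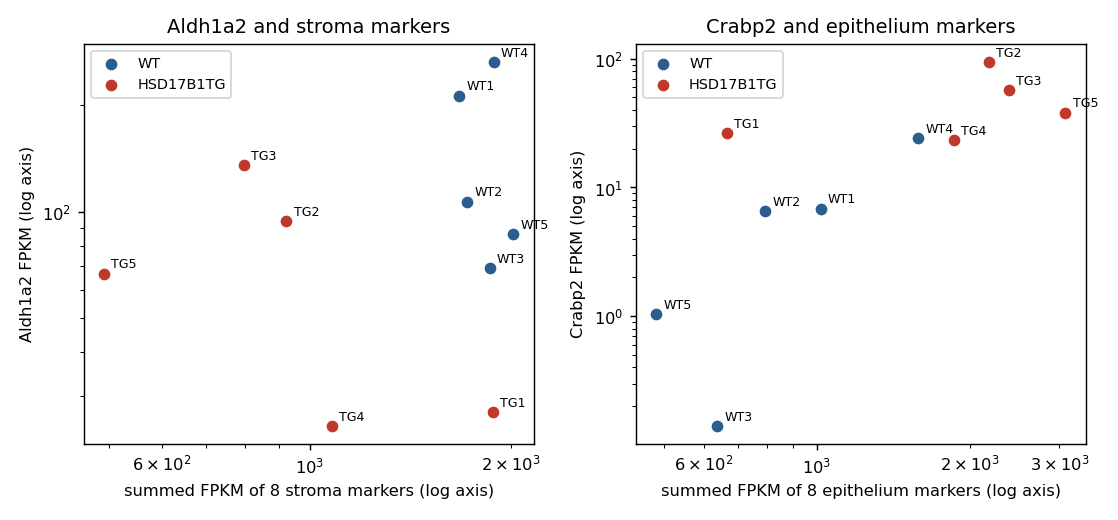
*Aldh1a2* FPKM against the summed FPKM of 8 stromal markers (left) and *Crabp2* FPKM against that of 8 epithelial markers (right), all axes logarithmic, 1 point per mouse. TG1 lies apart in both, with low *Aldh1a2* at a WT-like stromal sum and high *Crabp2* at a low epithelial sum.

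For each of the 8 tested genes, the protein-coding genes with the most similar pattern over the 10 mice were found among 13826 genes by the mean absolute difference of centred log2 CPM, so a smaller value means a closer pattern. For *Crabp2* they were *Slc26a9* (0.51), *Apol7a* (0.54) and *Ltf* (0.59), where the median gene was at 2.11. A gene with a flat pattern lies at the mean absolute deviation of the gene it is compared with. This deviation was 2.10 for *Crabp2*, 2.40 for *Stra6* and 1.80 for *Aldh1a3*, close to their medians, and 0.35 for *Rara* and 0.26 for *Rarg*, below theirs. The medians thus depend on the spread of each gene. *Ltf*, lactotransferrin, is a well known estrogen-induced gene of the mouse uterine epithelium. For *Stra6* they were *Tmem132c* (0.81), *Bmp7* (0.90) and *Col11a1* (0.92), with a median of 2.41. For *Aldh1a2* they were *Dclk3* (0.35), *Mastl* (0.40) and *Atp2b2* (0.43), with a median of 0.94, and for *Aldh1a1* they were *Psat1* (0.37), *Suv39h2* (0.44) and *Mastl* (0.45), with a median of 1.02. *Mastl*, a kinase of mitotic entry, was thus near both enzymes. For *Aldh1a3* the nearest genes were *Mmp10* (0.74), *mt-Nd4l* (0.91) and *Kcna2* (0.96), with a median of 1.82, and for *Rbp4* they were *Mmp2* (0.24), *Ccdc80* (0.24) and *Dhtkd1* (0.24), with a median of 0.89. *Mmp2* and *Ccdc80* encode proteins of the extracellular space made by fibroblasts. For the receptors, whose levels varied least, the nearest were *Pemt* (0.12), *Caskin2* (0.12) and *Mpv17l2* (0.13) for *Rara* (median 0.50), and *Dvl1* (0.09), *Zc3h3* (0.11) and *Zfp692* (0.11) for *Rarg* (median 0.42). These values are descriptions over 10 libraries of 2 genotypes, and shared function or control was not tested.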

How the data were processed

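Total RNA was isolated from the uteri of 10 mice and its mRNA sequenced as paired-end reads. The authors mapped the reads with HISAT2 2.0.5 to the mouse genome (GRCm38, Ensembl annotation) and deposited a table in which 29268 genes have raw counts per mouse, a deposited signal (the count divided by a DESeq2 size factor) and FPKM. The authors scaled these FPKM per kilobase of gene. How reads were counted, and with which strand setting, is not given in the sources used here. Columns and tables with the authors' own fold changes, p-values, adjusted p-values and over-representation results were not used.

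Counts were fitted over the whole table with edgeR 4.0.16 in R 4.3.3 (filterByExpr, TMM, quasi-likelihood test, genotype as the only term), with Benjamini-Hochberg adjustment over 16993 genes. Genes were called at an adjusted p under 0.05 if they also differed more than 2-fold and reached an average of more than 1 FPKM in a genotype. Single levels were compared with two-sided exact permutation tests over 252 assignments of log2(FPKM + 1), and pairs of genes on log2 ratios of FPKM + 0.1. FPKM + 0.1 divided by a summed marker level were compared on the log2 scale. The labels give mice as separate animals and name no batch.

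A count of 3, taken as the floor, was 0.129 to 0.202 CPM. It covers counting error only. The alternatives were DESeq2 1.42.0, limma 3.58.1, other normalizations, filters and pseudocounts, and each mouse left out. Leaving out the mice highest in adipocyte markers and dividing by marker sums were chosen after seeing the data, as was the count of all genes under that division. The 9 genes and all lists were chosen with earlier results of these data known. Named were the 9 genes, 10 further retinoid genes whatever their values, those of the list with an adjusted p under 0.05, and the 3 genes most like each of the 8 tested. A gene of the list is not reported here. The scripts were tested on simulated data. Coordinates are those of the table, and 7 of the 9 genes have the same ones in GENCODE M21, from which overlaps were read.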

Additional observations from a re-analysis of the deposited data

Results flagged for a closer look

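In 7 of 42 groups of 5 mice tested, 1 mouse stood apart from the others by Dixon's criterion, which chance meets in about 1 of 20 groups of normally distributed values. FPKM are skewed and all 7 were high values, so this rate need not hold here. Among HSD17B1TG mice these were *Aldh1a1* in TG3 (17.4 FPKM, the nearest mouse at 5.24), *Aldh1a3* in TG4 (2.61, nearest 0.767), *Cyp26b1* in TG2 (4.56, nearest 1.4002) and *Crabp1* in TG3 (13.1, nearest 3.77). Among WT mice they were *Aldh1a3* in WT2 (6.84, nearest 0.150), *Crabp2* in WT4 (24.1, nearest 6.83) and *Cyp26a1* in WT5 (20.1, nearest 2.14).

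WT4 was the WT mouse that kept the groups of both *Crabp2* and *Stra6* from separating, and it was also the WT mouse with the highest smooth muscle and epithelial marker sums and the lowest gland marker sum. The part of these in the levels was not tested.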

How the results depend on the processing

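No paired analysis was possible because the numbers in the labels of the 2 genotypes share fewer than 2 values and do not mark shared litters, and the replicate numbers used here only name mice. Of the 9 genes, edgeR called 0, DESeq2 called 2 (*Crabp2*, adjusted p = 0.0208, and *Stra6*, 0.0230), limma on voom weights 1 and limma on log2(FPKM + 1) 1 (*Crabp2*, adjusted p = 0.0138 and 0.0408). With each mouse left out the count was 0 to 2, and it was 2 only without WT4. Over the same fits the log2 fold change was 2.22 to 3.70 for *Crabp2* and -4.11 to -2.93 for *Stra6*. Of the further genes the 1 call became 6 with DESeq2 (*Cyp26a1*, *Fabp5*, *Rarres1*, *Rbp2* and *Rdh10* beside *Lipe*), 5 with voom (*Dhrs9*, *Fabp5*, *Rdh10* and *Tgm2* beside *Lipe*), 2 without the filter on low counts (*Rbp2* beside *Lipe*), 2 by adjusted p alone, 0 to 6 with a mouse left out (0 without TG2, TG5, WT2 or WT5, 2 without TG4, 3 without TG1, 6 without WT4) and 0 without TG4 and WT2 together. *Lipe* was not called without WT1 or WT3, where the 1 call was *Rbp2*. The 2 genes under 0.05 in the exact permutation test, *Crabp2* and *Stra6*, became 1 with log2(FPKM + 0.1) and 1 with log2 CPM, 1 to 3 with a mouse left out, and 4 and 3 when divided by epithelial and stromal markers, divisions that shift every gene and bring 34.7% of all genes under 0.05 as lower and 55.4% as higher. *Crabp2* was among them in each of the 10 fits with a mouse left out and *Stra6* in 2. No gene pair passed in any of these settings. Directions turned for *Aldh1a3* (0.33 with voom, 0.0521 and 0.72 with limma on log2(FPKM + 1) and log2(FPKM + 0.1), 2.06 without TG4 and WT2, -1.82 to 3.11 with a mouse left out) and for *Cyp26b1* (-0.0926 and -0.33 with limma on the same scales, -0.92 to 0.41 with a mouse left out). With a mouse left out, the mean log2(FPKM + 1) difference was -0.0577 to 0.0570 for *Rarb* and -0.22 to 0.62 for *Aldh1a3*, and the log2 ratio was -0.12 to 0.55 for *Aldh1a1* to *Aldh1a2*, -0.63 to 0.0469 for *Rarb* to *Rarg* and -0.0653 to 0.27 for *Rara* to *Rarg*. Apart from the settings' own construction, the cause was not tested. In all, 451 single results kept direction and side of the threshold, 15 came to pass it, 28 no longer did and 21 turned. Depth limits what can be said of *Rarb*, *Rbp2*, *Ttr*, *Cyp26c1* and *Rxrg*.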

Other observations

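Genes of the retinoid list outside those named by rule were read after their values were seen. Of those below, DESeq2 called *Fabp5* and *Rarres1*, and limma on voom weights called *Dhrs9*, *Fabp5* and *Tgm2*. Beside *Cyp26a1* and *Rarb*, given above, 3 tested genes are known to be induced by retinoic acid, and edgeR called none of them. Of these 3, 2 had an unadjusted p under 0.05 in opposite directions, where 26.1% of all genes had one. *Cyp26a1* was lower, also with an unadjusted p under 0.05 (0.00648 by edgeR). *Tgm2*, tissue transglutaminase, had an FPKM of 166, 370, 298, 193 and 325 in TG1 to TG5, and 94.6, 92.9, 72.3, 292 and 122 in WT1 to WT5 (log2 fold change 1.00, SE 0.39, edgeR adjusted p = 0.138). WT4 lay among the HSD17B1TG mice and the other WT mice below them. *Rarres1* was at 0.0405, 0.390, 0.602, 0.187 and 0.0970 FPKM in TG1 to TG5, and at 0.829, 8.50, 2.90, 0.219 and 0.884 in WT1 to WT5 (log2 fold change -3.32, SE 1.00, edgeR adjusted p = 0.0679). Here too WT4 was the only WT mouse within the HSD17B1TG range.

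*Dhrs9*, a retinol dehydrogenase of epithelia, had an FPKM of 11.7, 47.8, 43.9, 21.8 and 45.0 in TG1 to TG5, and 10.8, 3.15, 1.01, 27.5 and 2.51 in WT1 to WT5 (log2 fold change 1.92, SE 0.79, edgeR adjusted p = 0.155), with WT4 again the highest WT mouse. *Fabp5*, a fatty acid binding protein that can also carry retinoic acid, was at 5.14, 17.3, 17.9, 3.89 and 16.9 in TG1 to TG5, and at 5.19, 3.90, 5.30, 2.48 and 1.34 in WT1 to WT5. TG1 and TG4 lay among the WT mice (log2 fold change 1.74, SE 0.51, edgeR adjusted p = 0.0638). *Awat2*, an acyltransferase that can esterify retinol, was lower, at 0.539 ± 0.187 against 1.07 ± 0.479 FPKM (SD, n = 5 each; log2 fold change -0.999, edgeR adjusted p = 0.143). The groups of *Dgat1*, which esterifies retinol, did not overlap (10.3 ± 1.02 against 7.65 ± 0.523 FPKM, SD, n = 5 each), nor did those of the coactivator *Ncoa3* (11.1 ± 0.765 against 8.27 ± 1.35). Their adjusted p by edgeR was 0.0607 and 0.0797. In all, 6 of the 46 listed genes had groups that did not overlap, 4 of them among the 38 tested, beside 6.69% of all genes tested.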
